A study of Mus musculus with 8 samples.

Results

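The GATA factors Gata1 to Gata6 and their FOG partners Zfpm1 and Zfpm2 were described across 8 microarrays. The 8 genes were chosen as members of the 2 families, and they were read by 10 probes among 55681 non-control probes. Each of the 8 had a feature (the brightest probe of a gene) among the 40235 features tested. Cells bearing CD31 (PECAM-1) were enriched on magnetic beads from E12.5 mouse embryo carcasses without liver and brain, and RNA of each embryo went onto 1 array. The tested embryos were 4 Gata2 +9.5 mutants, labelled as -/- for that enhancer mutation, set against 4 wild type littermates. All were on the C57Bl/6J background, from matings of +9.5+/- parents. The mutation was in the germ line, not tied to a cell type, and CD31 beads were the sole enrichment. Embryos 1 and 2 of each genotype came from litter 1 and embryos 3 and 4 from litter 2.

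GATA factors are transcription factors whose zinc fingers bind DNA words with GATA at the core, and the FOG proteins (friend of GATA) bind to a GATA zinc finger rather than to DNA. Gata1, Gata2 and Gata3 are known from blood: Gata2 from stem cells, progenitors and mast cells, Gata1 from red cells, megakaryocytes and mast cells, and Gata3 from T cells and sympathetic neurons. Gata4, Gata5 and Gata6 are known from heart and endoderm. Zfpm1 (FOG1) works with Gata1 in red cells and megakaryocytes, and Zfpm2 (FOG2) works with Gata4 in the heart and gonad. Gata2 is also made in endothelium, and its +9.5 enhancer, inside an intron of the gene, is needed for blood stem cells to arise from endothelium.

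What each probe reads limits what its values mean, so 30-base stretches of the probes on which the results turn are shown, 5′ to 3′, as the deposited files give them. The capitals in the Gata5 stretch mark a 16-base word that returns in probes of other genes.
Gata2: aactgcataagcttaacccgctgatgagtg
Gata1: aataaaaccacctggagacatgcgctggta
Gata5: tgtagctCTGGCTGTCCTGGAACtcattat
Zfpm1, first probe: agtgagcctgtggggccgcaccaccaggac
Zfpm1, second probe: gcctgtggggccgcaccaccaggacccttg
The Gata2 probe lies at chr6:88156362-88156421 on the plus strand and the Gata1 probe at chrX:7536392-7536451 on the minus strand, in the mm9 build of the file headers. Neither shared a 16-base word with a probe of another gene on either strand, and the probes of Gata3, Gata4, Zfpm1 and Zfpm2 did not either. The Gata5 probe, at chr2:180059867-180059926, shared such words with 11 other probes and with 47 RefSeq promoter windows of other genes. Probes of other named genes accounted for 10 of the 11, and 1.09% of the 33264 probes of named genes shared words with at least as many. Its signal may thus hold RNA of other genes. The 2 Zfpm1 probes overlap by 55 of their 60 bases and are close to 1 measurement, while the 2 Zfpm2 probes overlap by 7.

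Values are log2 processed intensities minus the 75th percentile of the array, so a value of 0 is the 75th percentile and a negative value lies below it. A difference of 1 is a doubling. Levels of one probe were not set against those of another, because probes differ in brightness for the same amount of RNA. All 10 probes were well above background on all 8 arrays, and none of their spots was marked as an outlier. The 75th percentile ran from 996 to 2481 intensity units. On principal component 1 (58.9% of the variance) mutant 4, wild type 2 and wild type 3 were highest, at 124, 99.8 and 159. Wild type 4 came next at 23.2, and mutants 1 to 3 and wild type 1 ran from -128 to -60.1. Each litter was on a slide of its own, and the effects of slide and litter cannot be told apart. The median change of all features was 0.05 log2 units. The endothelial markers were present throughout, with all 10 of them well above background on all 8 arrays and 0 of 10 passing the genotype test.

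Gata2, whose own enhancer carried the mutation, was lower in every mutant than in any wild type embryo. Its values were -1.24, -0.15, -1.27 and -1.07 in mutants 1 to 4, against 2.00, 1.66, 0.89 and 1.42 in wild type 1 to 4. Mutant 2 was the highest of the mutants and still lay 1.04 log2 units under wild type 3, the lowest wild type embryo. The means were -0.93 ± 0.53 in mutants and 1.49 ± 0.46 in wild type (SD, n = 4 each), a difference of -2.42 with a standard error of 0.39. That is 5.36-fold lower, with a 95% interval of the log2 difference of -3.28 to -1.57. In limma's moderated test over all features this did not pass the threshold of 0.05 (adjusted p = 0.0859, unadjusted p = 6.58e-05). The exact two-sided permutation test of the 8 values alone gave p = 0.0286, the smallest value that 70 arrangements can give. Among negative differences it held rank 39 of 40235 features, and 0.0969% of features had one at least as large. It passed in 5 of 23 other settings, with an adjusted p of 0.00716 to 0.853 over the 23. The difference was -2.52 within litter 1 and -2.32 within litter 2.

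Of the other 7 genes, Gata1 alone also had all mutants below all wild type embryos. Gata1 measured -1.72, -1.05, -0.49 and -0.33 in mutants 1 to 4, against 0.69, 0.30, 1.10 and 1.36 in wild type 1 to 4. The gap between the highest mutant and the lowest wild type embryo was 0.63, narrower than for Gata2. Its means were -0.90 ± 0.63 in mutants and 0.86 ± 0.47 in wild type (SD, n = 4 each), a difference of -1.76 with a standard error of 0.41 and a 95% interval of -2.66 to -0.86. That is 3.39-fold lower, but limma's adjusted p was 0.717 (unadjusted p = 0.00126), and the exact permutation test gave p = 0.0286. Thus 0 of the 8 genes passed the adjusted threshold, against 0.0447% of all features, and 2 of 8 were lower without overlap, against 0.534% of all features. Higher without overlap were 0 of 8, against 0.505%. At an unadjusted p under 0.05, 2 of 8 passed, both lower, against 3.05% of all features (2.67% lower and 0.38% higher). Tested probe by probe, 0 of the 10 passed, against 0.0333% of all probes. With each array left out once, Gata2 stayed between -2.68 and -2.25 and Gata1 between -1.95 and -1.48, and neither passed the adjusted threshold.

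**Figure D1:**
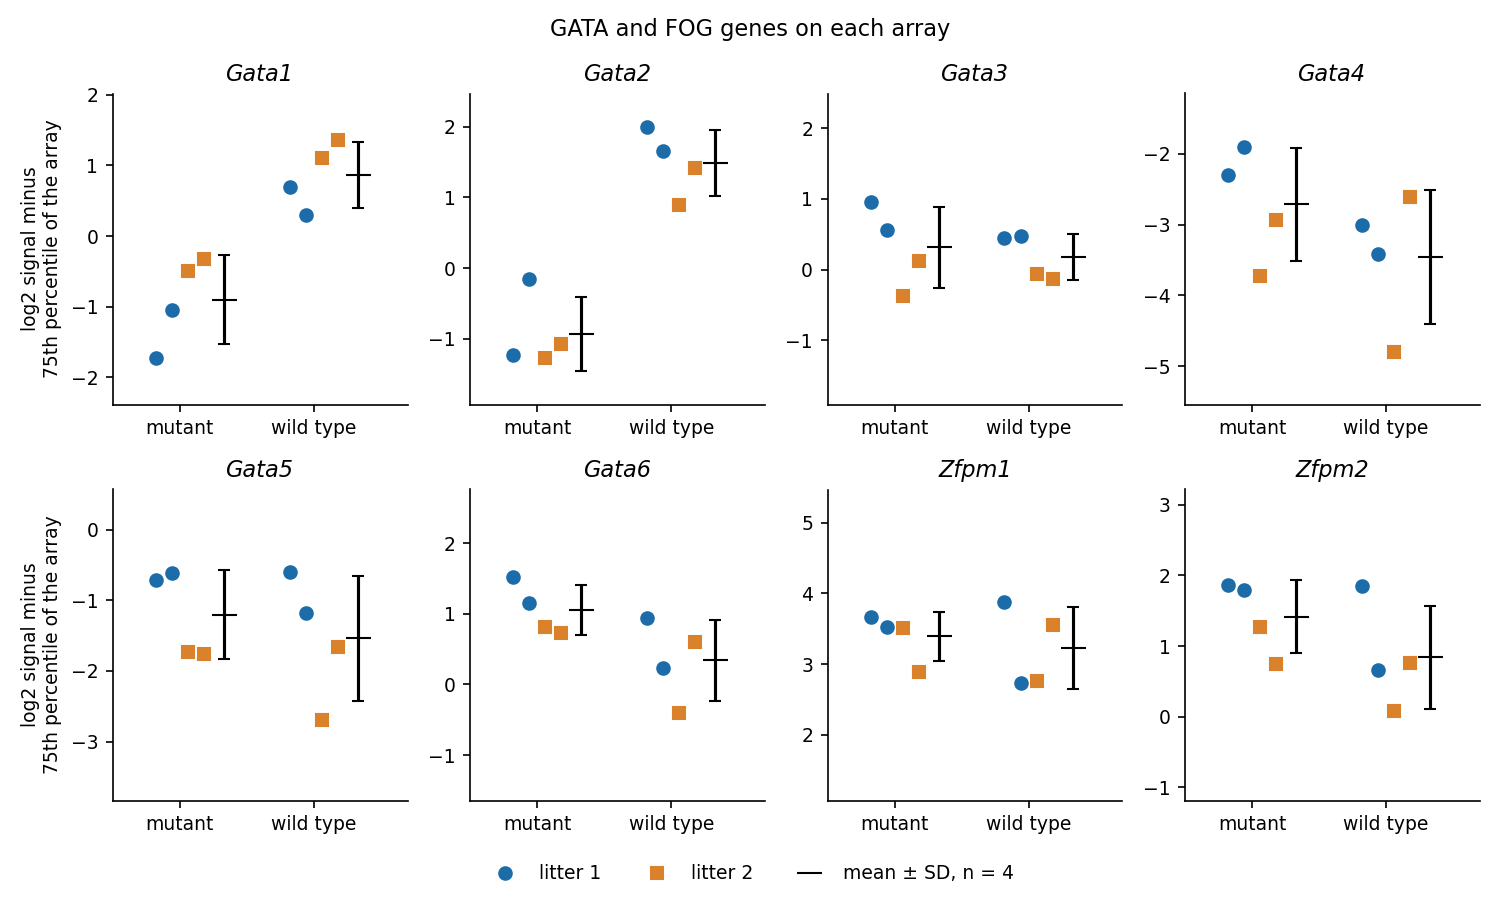
Log2 signal minus the array's 75th percentile for the 8 genes (1 panel a gene, 1 point an array, mutant left of wild type, litter by colour and shape), with the mean ± SD of 4 arrays beside the points. The axes span the same number of log2 units but start at different levels. Mutant and wild type points are apart for Gata1 and Gata2 and overlap for the other 6 genes.

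Gata3, a factor of T cells and sympathetic neurons, did not separate by genotype. It measured 0.96, 0.56, -0.38 and 0.13 in mutants 1 to 4, against 0.45, 0.48, -0.07 and -0.13 in wild type 1 to 4. The difference was 0.13 (95% interval -0.70 to 0.97, adjusted p = 0.860 in limma), and it was -0.08 without mutant 1. A difference of the size seen for Gata2 or for Gata1 thus lies outside the interval of Gata3.

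The 3 genes known from heart and endoderm had positive differences, all with overlapping groups. Gata4 measured -2.29, -1.90, -3.73 and -2.94 in mutants 1 to 4, against -3.01, -3.41, -4.79 and -2.61 in wild type 1 to 4. Wild type 3 was the lowest array, and the difference of 0.74 (95% interval -0.46 to 1.94) was 0.30 without it. Gata6, which is also made in endothelium and smooth muscle, measured 1.51, 1.15, 0.82 and 0.72 in mutants 1 to 4, against 0.94, 0.23, -0.40 and 0.59 in wild type 1 to 4. Only wild type 1 reached into the mutant range. The difference of 0.71 (95% interval -0.13 to 1.55) had an exact permutation p of 0.0857 and was 0.46 without wild type 3. Gata5, with the shared word in its probe, measured -0.71, -0.61, -1.74 and -1.76 in mutants 1 to 4, against -0.61, -1.18, -2.69 and -1.66 in wild type 1 to 4. Its difference was 0.33 (95% interval -0.76 to 1.42), and -0.05 without wild type 3. In limma the adjusted p was 0.717 for Gata4 and for Gata6 and 0.752 for Gata5. Without mutant 4, wild type 2 and wild type 3 together, the differences were 0.17 for Gata4, 0.40 for Gata6 and 0.12 for Gata5.

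Neither FOG gene separated by genotype. Zfpm1, the partner of Gata1, measured 3.67, 3.52, 3.51 and 2.89 in mutants 1 to 4, against 3.88, 2.73, 2.76 and 3.56 in wild type 1 to 4. Mutant 4, wild type 2 and wild type 3 were its low arrays, the same 3 arrays that were highest on the first principal component. The difference was 0.16 (95% interval -0.67 to 1.00, adjusted p = 0.831 in limma), its second probe gave 0.12, and without those 3 arrays it was -0.15. Zfpm1 thus had no settled sign: it was -0.21 with quantile normalization and -0.0026 without wild type 2. Zfpm2, the partner of Gata4, measured 1.87, 1.79, 1.27 and 0.74 in mutants 1 to 4, against 1.85, 0.66, 0.09 and 0.76 in wild type 1 to 4. Its difference was 0.58 (95% interval -0.39 to 1.55, adjusted p = 0.717 in limma), with 0.57 from its second probe. It was 0.91 without wild type 1, 0.33 without wild type 3, and 0.34 without mutant 4, wild type 2 and wild type 3 together.

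**Figure D2:**
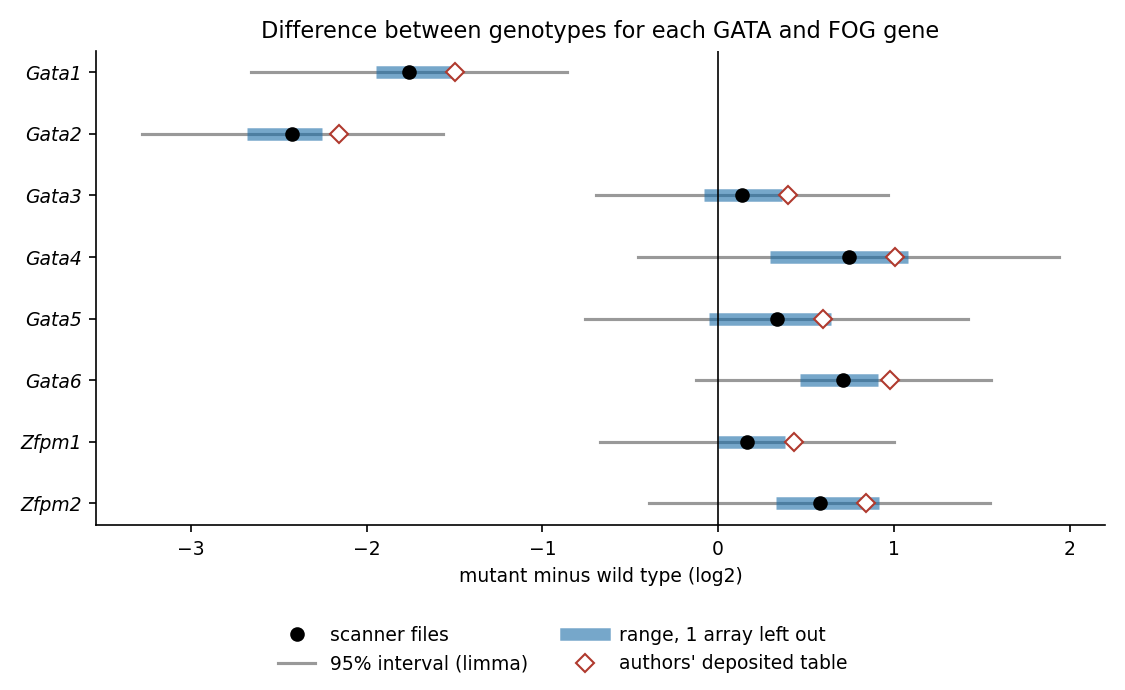
Mutant minus wild type in log2 units for each gene (black points), with the limma 95% interval (grey line), the range when 1 array at a time is left out (blue bar) and the value in the authors' deposited table (open diamonds). The intervals of Gata1 and Gata2 lie below 0 and those of the other 6 genes include 0. Each diamond lies the same distance from its black point, since the values differ only in how arrays were scaled.

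The authors' deposited table gives the same order, with -2.16 for Gata2 (adjusted p = 0.0732) and -1.50 for Gata1 (adjusted p = 0.624). In the authors' deposited table the probes standing for the other 6 genes run from 0.40 for Gata3 to 1.01 for Gata4, and the second Zfpm1 probe is at 0.39. Centring each array on its median, as those values do, also moved the median of all features, to 0.32 on the probes tested here.

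Subtracting 1 value from an array leaves the difference between 2 genes on it unchanged, though quantile normalization can move it. Gata2 was therefore also set against each of the other 7 genes array by array. The mutant minus wild type change of that difference was -2.56 against Gata3, -3.16 against Gata4, -2.76 against Gata5 and -3.13 against Gata6. It was -2.59 against Zfpm1 and -3.00 against Zfpm2. In these 6 of 7 pairs all mutants lay below all wild type embryos. The exact permutation test gave p = 0.0286 for each, not adjusted over the 7 comparisons, which share Gata2. Gata2 alone already lay apart by 1.04 log2 units, so the 6 results are no separate evidence about the other genes. The share of all features that would lie apart from Gata2 in this way was not computed. In each of these 6 pairs the change had the same sign within both litters. With Gata1 the change was -0.66, the groups overlapped and the exact permutation p was 0.314. That test took no account of litter. With genotype permuted within litters, a comparison added after the values were seen, the exact p was 0.0556, the smallest that 36 arrangements can give and so unable to pass 0.05, for Gata1 as for the other 6 pairs.

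**Figure D3:**
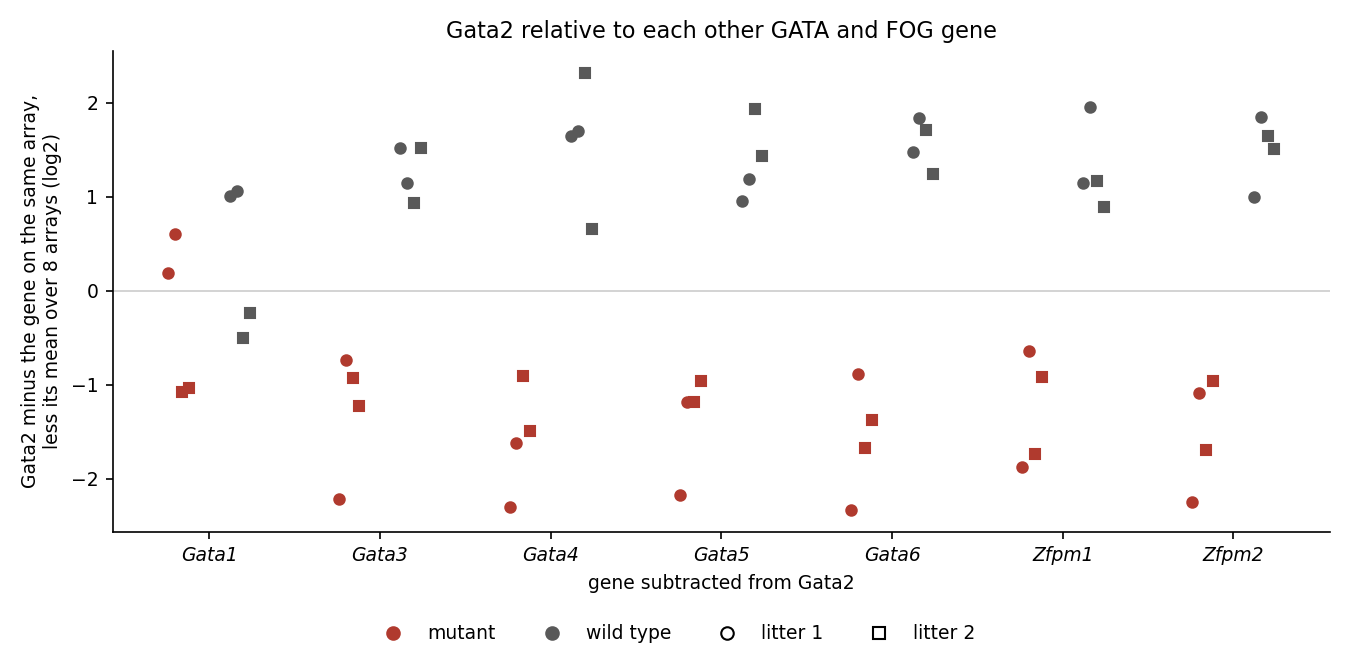
Log2 signal of Gata2 minus that of each other gene on the same array, less the mean of that difference over the 8 arrays (1 point an array, mutants in red left of wild type in grey, litter by shape). Mutants and wild type are apart for 6 genes. For Gata1 they overlap, and the 2 litters are apart.

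The difference of Gata2 and Gata1 followed the litter. It was 0.49 and 0.90 in mutants 1 and 2 and 1.31 and 1.36 in wild type 1 and 2, all of litter 1. In litter 2 it was -0.78 and -0.74 in mutants 3 and 4, and -0.21 and 0.06 in wild type 3 and 4. Within each litter both mutants were below both wild type embryos, by 0.64 on average in litter 1 and 0.68 in litter 2. Litter 2 minus litter 1 was 0.85 for Gata1 (adjusted p = 0.107 in limma with genotype in the model) and -0.57 for Gata2 (adjusted p = 0.269).

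For Gata3 and Gata5 the litters lay apart while the genotypes overlapped. Gata5 averaged -1.96 in litter 2 and -0.78 in litter 1, and Gata3 averaged -0.11 in litter 2 and 0.61 in litter 1. For both, all 4 arrays of litter 2 lay under all 4 of litter 1 (exact permutation p = 0.0286), as did 3.57% of all features. The adjusted p of litter in limma was 0.0612 for Gata5 and 0.138 for Gata3, and 4.91% of all features passed for litter. Without adjustment, litter passed for 4 of 8 genes (Gata1, Gata3, Gata5 and Zfpm2), against 25.8% of all features. The interaction test of genotype by litter passed for 0 of the 8 genes (adjusted p = 0.99997 in limma for each) and for 0 of all 40235 features. Without adjustment 1.22% of all features passed it. Its standard errors were 0.61 to 0.99 log2 units for the 8 genes, too wide to show that the genotype difference was alike in both litters. For Gata4 that difference was 1.12 in litter 1 and 0.37 in litter 2. With litter as a block in the fit, the adjusted p was 0.0643 for Gata2 and 0.116 for Gata1.

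The promoter windows of the 2 genes that were lower are shown because they lay low together. RefSeq (GRCm38.p6) gives 1 start for Gata1 and 2 for Gata2, and the 250 bases before each start are printed on the strand of the gene. Capitals mark CANNTG (the E-box), CCAAT and CCACCC, searched on both strands with the GATA box (the word AGATAA and its variants AGATAG with a final G, TGATAA with a first T, and TGATAG with both changes).
Gata1, chrX:7967911-7968160, minus strand: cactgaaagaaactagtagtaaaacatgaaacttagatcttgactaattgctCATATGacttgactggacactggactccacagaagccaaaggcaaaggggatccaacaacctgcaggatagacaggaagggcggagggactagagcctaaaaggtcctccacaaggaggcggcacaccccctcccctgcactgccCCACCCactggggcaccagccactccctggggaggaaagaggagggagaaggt
Gata2, chr6:88193641-88193890, plus strand: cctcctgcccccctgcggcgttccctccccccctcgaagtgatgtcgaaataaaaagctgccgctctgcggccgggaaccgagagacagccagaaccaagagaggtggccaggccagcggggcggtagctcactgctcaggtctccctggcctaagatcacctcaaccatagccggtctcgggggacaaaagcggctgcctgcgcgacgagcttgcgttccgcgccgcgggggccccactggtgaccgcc
Gata2, chr6:88198414-88198663, plus strand: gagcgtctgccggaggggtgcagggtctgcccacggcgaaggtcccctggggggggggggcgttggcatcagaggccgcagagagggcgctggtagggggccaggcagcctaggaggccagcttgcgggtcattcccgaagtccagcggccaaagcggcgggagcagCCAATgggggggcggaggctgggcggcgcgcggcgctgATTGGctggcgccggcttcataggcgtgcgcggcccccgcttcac
The Gata1 window holds 1 E-box, 198 bases before the start, and 1 CCACCC. The first Gata2 window holds none of the 4 motifs, and the second holds 2 CCAAT boxes and none of the others. The GATA box was in none of the 6 windows of the 5 genes with an entry (also Gata3, Gata5 and Zfpm1), and in 26.5% of the 32851 windows of all genes. Bases of the 6 windows were 54.0% to 74.0% G or C, against a median of 52.4% over all windows. How that bears on the absence of the GATA box was not tested. E-boxes were in 66.2% of all windows, CCAAT in 33.8% and CCACCC in 28.1%. The words are matches of letters, not measured sites.

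The proteins that join GATA and FOG factors on DNA showed no call. FOG proteins recruit the NuRD complex, a histone deacetylase and nucleosome remodeller, and 0 of 14 measured NuRD and CtBP genes passed. All 14 had positive differences, from 0.01 for Mta1 to 0.49 for Mta2, with a median of 0.41 against 0.05 for all features. All 14 were well above background on all 8 arrays, and features of that kind had a median of 0.16. The median level of the 14 was lowest in wild type 3 (2.33), mutant 4 (2.88) and wild type 2 (2.90). These are the arrays that were highest on principal component 1, and their part in the differences was not tested. Hdac1, a deacetylase of the complex, differed by 0.48 and Rbbp7, a histone-binding subunit, by 0.48. Of 20 genes of the GATA complex and its coactivators 0 passed, with a median of 0.36. Tal1 and Lmo2, which sit with GATA factors in one complex on DNA, differed by 0.53 and 0.62. The largest negative difference was that of Spi1 (PU.1), a myeloid factor that opposes Gata1, with -0.79. The Spi1 probe was well above background on only 2 mutant and 3 wild type arrays. Runx1, needed with Gata2 for blood to arise from endothelium, differed by -0.42. Of 9 genes with GATA-type fingers outside the family, such as Trps1 at 0.33 and Rere at 0.41, 0 passed.

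Genes known as targets of Gata1 and Zfpm1 are given by cell type. These and the other gene lists were drawn up with results of these data known, so their counts are descriptions and not independent evidence. Of 11 megakaryocyte genes 2 fell, against 0.0447% of all features, and 9 did not pass. All 11 had negative differences and 8 lay below wild type without overlap, against 0.534% of all features. Their median was -2.14, against 0.05 for all features. Gp9, of the receptor by which platelets bind von Willebrand factor, had values of -1.50, 0.08, -1.38 and -1.65 in mutants 1 to 4, against 2.55, 1.60, 2.40 and 2.94 in wild type 1 to 4. Mutant 2 was again the highest mutant. Gp9 fell by 3.49, or 11.2-fold (adjusted p = 0.0362 in limma), and Gp1ba, of the same receptor, fell by 2.80, or 6.97-fold (adjusted p = 0.0441). Both had an adjusted p of 0.0643 with litter as a block, and 0 of the 11 genes passed under that block. Pf4, the platelet chemokine, differed by -2.75 and Itga2b, the platelet integrin chain, by -2.45. Of 11 measured red cell genes 0 passed, with a median of 0.35. Epb42, a protein of the red cell membrane, differed by -1.11, Klf1, a red cell transcription factor driven by Gata1, by -0.84 and Uros, an enzyme of haem synthesis, by 0.65. The Epb42 probe was well above background on 2 mutant and 4 wild type arrays. Epor, the erythropoietin receptor, differed by -0.65 (adjusted p = 0.717) and was the 1 gene of the 11 whose groups did not overlap.

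Among 14 measured genes linked to Gata2 in stem and mast cells 1 fell, against 0.0447% of all features, and the median was -0.28. Differences were negative for 8 and positive for 6, and 4 genes lay below wild type without overlap, against 0.534% of all features. Hdc, the histamine-making enzyme of mast cells and basophils, had values of -2.21, -1.24, -1.56 and -2.21 in mutants 1 to 4, against 1.11, 1.23, 2.00 and 2.55 in wild type 1 to 4. All mutants lay more than 2 log2 units under all wild type embryos. Hdc fell by 3.53, or 11.5-fold (adjusted p = 0.0231, and 0.0531 with litter as a block). Cpa3, the mast cell carboxypeptidase, differed by -4.92 and Il1rl1, an interleukin receptor of mast cells, by -2.17, without passing. The Cpa3 probe was well above background on 3 of 4 mutant arrays, and mutant 1 was its lowest array at -5.92. Kit, the stem cell factor receptor, differed by -0.34 and Tal1 by 0.53. Of 10 genes linked to Gata2 in endothelium 0 passed, from -0.19 for Edn1, the vasoconstrictor endothelin, to 0.66 for Nrp2, a semaphorin and growth factor receptor, with a median of 0.30. Kdr, the main VEGF receptor, differed by 0.33.

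Genes linked to the other GATA factors gave no call. Of 16 linked to Gata3, 0 passed, with a median of 0.21 and differences from -1.27 for Il7r, the interleukin 7 receptor, to 1.12 for Tbx1, a factor of pharyngeal development. The Il7r probe was well above background on 0 mutant and 4 wild type arrays, so it entered the test through wild type alone. With mutant values raised to the floor of detection, its mean was lower in mutants by 1.78-fold, without passing (adjusted p = 0.717 in limma). Of 20 measured genes linked to Gata4, Gata5 and Gata6, 0 passed, with a median of 0.16 and differences from -1.18 for Tbx20 to 0.73 for Myh7, a cardiac factor and a cardiac myosin.

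**Figure D4:**
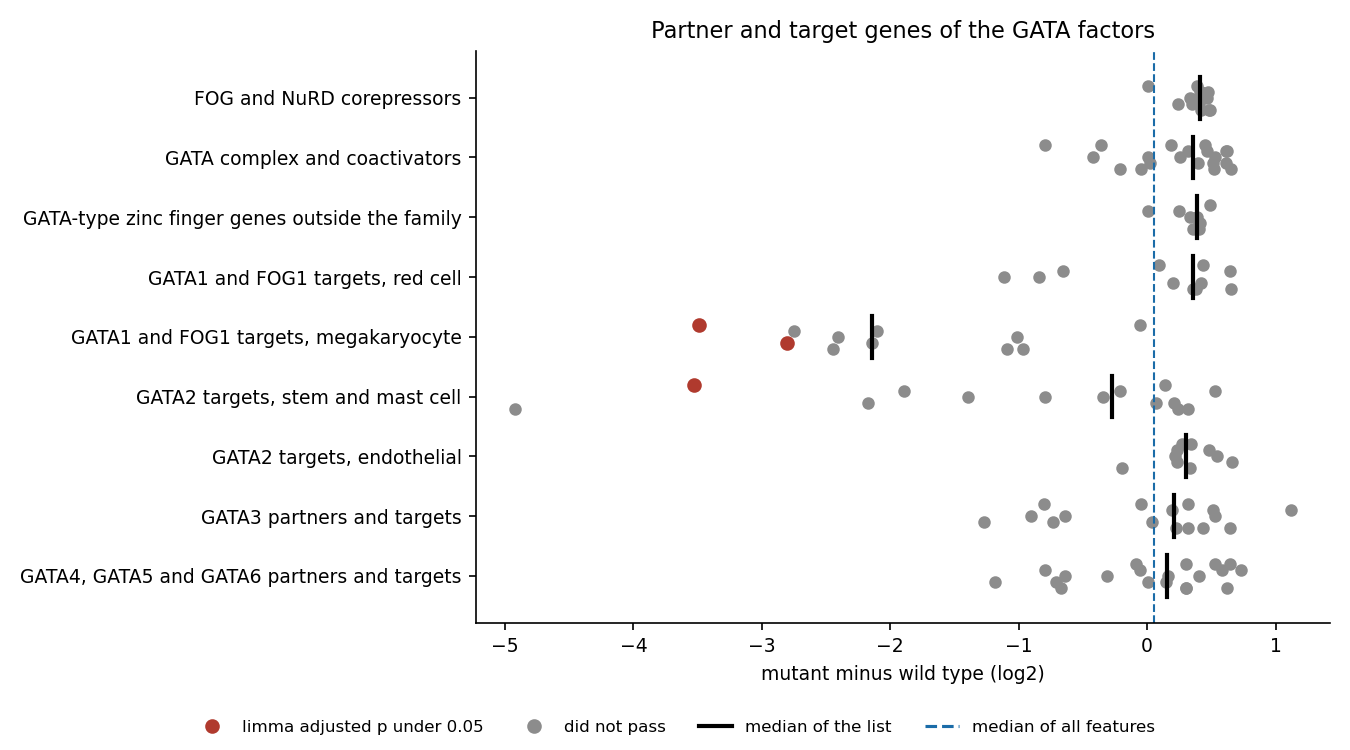
Mutant minus wild type in log2 units for the measured genes of 9 lists (1 point a gene), with the median of each list (black bar) and of all features (dashed line). The 3 genes that passed (red) are Gp9, Gp1ba and Hdc, and 11 of 11 megakaryocyte genes lie left of 0.

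Markers of megakaryocytes and platelets lay low on the same 4 mutant arrays as Gata1 and Gata2, and those of red cells did not. In bulk RNA, fewer cells of a type and less RNA per cell cannot be told apart. All 10 megakaryocyte and platelet markers were lower without overlap, against 0.534% of all features, and 3 fell, against 0.0447% (Treml1, a receptor of platelet granules, and Gp9 and Gp1ba). Treml1 had an adjusted p of 0.0231 in limma, and 0.0531 with litter as a block. The median level of the 10 ran from -1.67 to -0.19 in mutants, against 1.29 to 2.44 in wild type. Of 8 measured mast cell and basophil markers 3 were lower without overlap and 1 fell (Hdc), and the median level of the 8 ran from -2.93 to -1.98 in mutants, against -1.41 to -0.47 in wild type. Of 10 stem and progenitor markers 6 had negative and 4 positive differences, with a median of -0.38, and 3 were lower without overlap. Only 1 of the 10 fell, Slamf1 (CD150), lower by at least 2.21-fold (adjusted p = 0.0231 in limma, and 0.0531 with litter as a block). Its probe was well above background on 0 mutant and 4 wild type arrays, so it entered the test through wild type alone. The call of Slamf1 is thus a description and not support. Red cell markers gave 0 of 8 and followed the litter, with 4.12 and 4.20 in mutants 3 and 4 and 3.20 and 4.50 in wild type 3 and 4. In litter 1 they were at 1.63 and 1.61 in mutants 1 and 2 and 1.09 and 0.65 in wild type 1 and 2. The part of these cells in the levels of Gata1 and Gata2 was not tested.

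**Figure D5:**
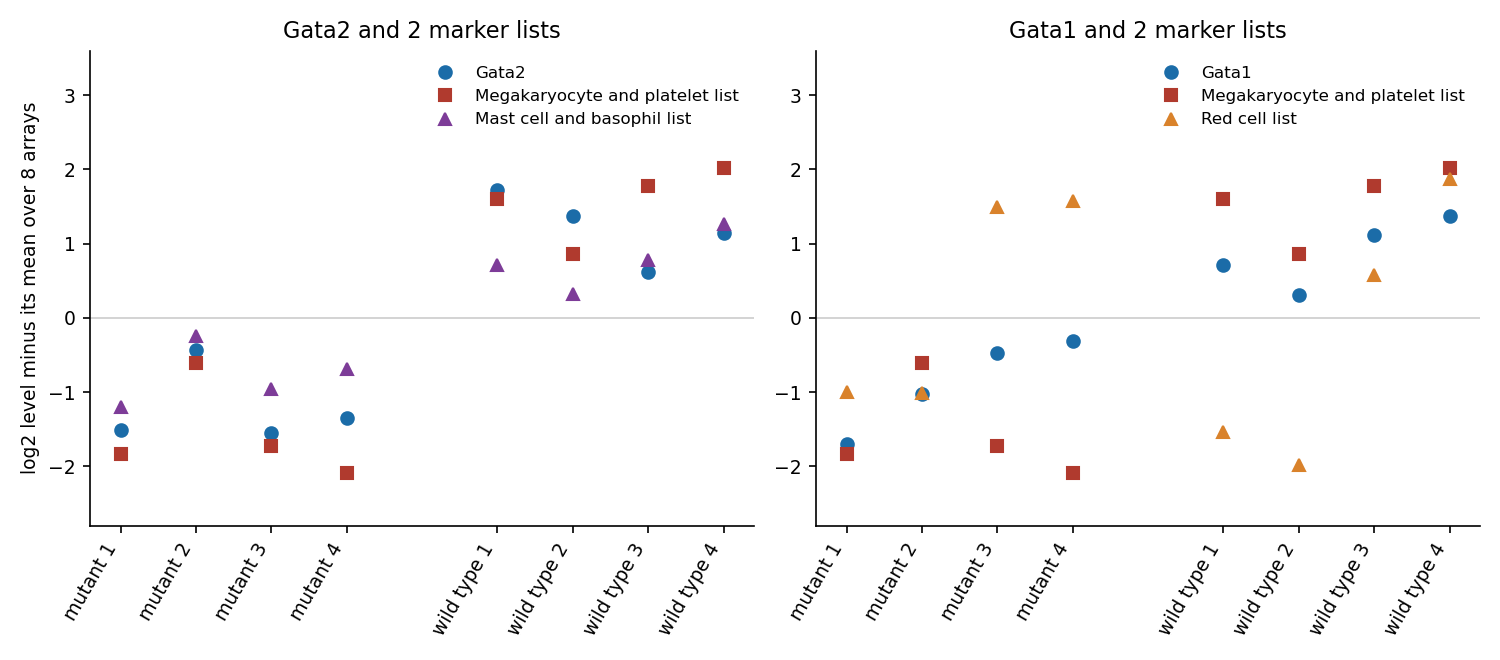
Log2 level of Gata2 (left panel) and Gata1 (right panel) on each array beside the median level of the genes in each marker list, each less its own mean over the 8 arrays. Gata2, Gata1 and the megakaryocyte and platelet list are lower on all 4 mutant arrays than on any wild type array, and the red cell list is higher on the arrays of litter 2, embryos 3 and 4.

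The features whose 8 values were most like those of a GATA or FOG gene were found by the root mean square difference of centred log2 values over 21460 named features. For Gata2 they were Slc6a4, the serotonin transporter that platelets carry, with 0.41, Tmem40 with 0.42 and Il1rl1 with 0.48, where the median over all features was 1.44. In limma the unadjusted p was 5.59e-05 for Tmem40 and 6.58e-05 for Gata2, and the adjustment gave both the same value of 0.0859. For Gata1 they were Tbxas1, the thromboxane synthase of platelets, with 0.14, Hp, which encodes haptoglobin, with 0.14, and Tnfsf14, a cytokine of lymphocytes, with 0.16. The median over all features was 1.17. Tbxas1 measured -2.36, -1.55, -1.31 and -0.80 in mutants 1 to 4, against 0.04, -0.45, 0.69 and 0.61 in wild type 1 to 4. It kept the step of Gata1 between litters within each genotype.

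Zfpm1 was closest to Cds2, Mgat4b and Gart, at 0.05 to 0.06, features whose genotype differences were 0.14 to 0.19. For Gata6 the closest were D10Wsu102e, Hsp90aa1 and Septin9, at 0.11 to 0.13, with 0.53 to 0.68 between genotypes. For Gata3 they were Gpr143, Nat2 and Slc25a26, at 0.10 to 0.14. These likenesses are over 8 arrays that share scaling and litter, and they describe the arrays.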

How the data were processed

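Each spot's intensity, on a linear scale, was deposited as written by Agilent Feature Extraction 10.7.3.1 from 1 channel (Cy3) with mm9 coordinates, per the file headers. The processed intensity is background-subtracted within the array, per the file headers, and no scaling between arrays had been applied. The authors' deposited table holds log2 values, log2 fold changes, raw and adjusted p-values and test scores (t and B), for which the submitters' processing notes name limma. Its log2 values served as an alternative.

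The processed intensity was set on the log2 scale less the 75th percentile of its array, spots marked as outliers were dropped and a probe's spots averaged. Kept were probes that 4 or more of the 8 arrays showed well above background, and the brightest stood for each symbol. Names came from RefSeq accessions, gene symbols or the file, in that order. Two-sided tests used limma 3.58.1 (lmFit, eBayes, R 4.3.3) with Benjamini-Hochberg adjustment over 40235 features, tested on simulated data, and single values by exact permutation of 4 against 4 arrays (for gene pairs also within litters). 1 array per embryo and 4 embryos per group limit the precision. The alternatives were other background corrections, scalings, filters, probe rules, weights, blocks and left-out arrays.

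The litter numbers of the labels mark shared litters. Deviations from the group means correlated at a mean r of 0.27 across genotypes within litters (8 pairs, from -0.16 to 0.74) and -0.27 between litters. Deviations sum to 0 within a genotype, so the second mean follows from the first and is no further observation. It cannot tell litter from slide. The genes and lists were chosen with earlier results of these data known. The text names the 8 genes, list members that passed or differed most, and the 3 features most like each of 5 of the genes. Range ends of lists and Tal1, Runx1, Trps1, Rere, Kit and Kdr were named for their roles after their values were seen. The sequence of the Gata6 probe is not reported here.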

Additional observations from a re-analysis of the deposited data

How the results depend on the processing

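Over 23 other settings Gata2 was lower in mutants in all 23, from -2.68 to -2.16, and Gata1 in all 23, from -2.11 to -1.48. Gata2 passed the adjusted threshold in 5 of them, with adjusted p over the 23 from 0.00716 to 0.853: normexp background correction (-2.26), probes well above background on all 8 arrays (-2.42), a floor on low signals (-2.42), a trended and robust prior (-2.42) and array weights (-2.32). Gata1 passed with array weights alone (adjusted p = 0.0471). The 18 features past the threshold, all lower, became 1 with quantile normalization, 39 with normexp, 5 with normexp and quantile normalization, 8 with no filter on dim probes, 30 with the floor, 31 with the trended and robust prior, 3784 with array weights (3609 lower) and 52 with the authors' deposited values (40 lower). With litter as a replicate block 0 features passed, 1954 did so without adjustment, and with the sample number as a block 0 passed. Beside the calls named, the litter block changed no call among the 8 genes. Leaving out 1 array gave 0 to 24 features, with 0 without mutant 1, mutant 3, wild type 1, wild type 3 or wild type 4, and 6 without wild type 2. The 2 megakaryocyte genes that passed became 0 without any of those 6 arrays and stayed at 2 without either of the remaining mutants. With mutant 4, wild type 2 and wild type 3 all left out 0 features passed.

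The sign turned for Zfpm1 with quantile normalization (-0.21), normexp and quantile normalization (-0.24), without those 3 arrays (-0.15) and without wild type 2 (-0.0026), for Gata3 without mutant 1 (-0.079) and for Gata5 without wild type 3 (-0.052). The litter difference of Zfpm1, -0.28, turned to 0.24 with quantile normalization and 0.30 with normexp and quantile normalization. Over the 1-array leave-outs the differences ran up to 0.37 for Gata3, 0.64 for Gata5 and 0.38 for Zfpm1. The cause of these changes was not tested, except that fewer arrays leave fewer residual degrees of freedom. The median of all features moved to 0.32 with median centring, 0.40 with the authors' deposited values and -0.17 with array weights. Gata4 had the largest standard error of the 8 genes (0.54).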

Other observations

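Markers of cell types outside blood and endothelium were measured beside the GATA genes, and 0 passed the genotype test in limma in any of these lists. Of 8 cardiomyocyte markers, the cells in which Gata4 and Zfpm2 are best known, 3 had negative and 5 positive differences, with a median of 0.14. The 5 endocardial markers had 2 negative and 3 positive differences, from -0.71 for Bmp10 to 0.61 for Plvap, with a median of 0.48. The 5 measured gonad markers had a median of -0.09, and the 8 sympathetic and neural markers, where Gata3 is known, a median of 0.37. The 7 mesenchymal markers all had positive differences, from 0.09 for Pdgfrb to 0.52 for Pdgfra. The 5 liver markers had 2 negative and 3 positive differences, from -0.67 for Hnf4a to 3.07 for Afp, a plasma protein of fetal liver and yolk sac (adjusted p = 0.717). Afp measured -1.99, -1.30, 4.43 and 5.95 in mutants 1 to 4, against -6.61, -1.19, 0.43 and 2.17 in wild type 1 to 4, and the groups overlapped. The Afp probe was well above background on 3 of 4 wild type arrays. The 8 macrophage markers had a median of -0.16 and the 7 lymphoid markers a median of 0.04.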
